A study of Oryza sativa Japonica Group with 6 samples.

Results

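Mitotic cyclins and cyclin-dependent kinases were followed in rice leaf blades through 8 loci with 18 probes, out of 28855 loci and 42477 probes on the arrays. The 8 loci were chosen by locus identifier, as named cell cycle genes. They are the B-type cyclins CYCB1;1 (Os01g0805600, chromosome 1), CYCB2;1 (Os04g0563700, chromosome 4) and CYCB2;2 (Os06g0726800, chromosome 6), the B-type kinases CDKB1;1 (Os01g0897000, chromosome 1) and CDKB2;1 (Os08g0512600, chromosome 8), the A-type kinases CDKA;1 (Os03g0118400, chromosome 3) and CDKA;2 (Os02g0123100, chromosome 2), and the kinase inhibitor KRP1 (Os02g0762400, chromosome 2). Chromosomes are those in the locus identifiers, and no coordinates were used. The samples were fourth-leaf blades of untreated Nipponbare rice at the 4-leaf stage, grown from seed at 25 °C. They comprised 3 wild-type samples and 3 samples of Line 13, in which a linalool synthase was overexpressed and which the labels describe as accumulating linalool, a volatile monoterpene alcohol. Each sample pooled at least 3 plants. Line 13 is a single line, and the sources used here do not name the promoter of its transgene.

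Cyclin-dependent kinases drive the plant cell cycle and are active only when bound to a cyclin. A-type kinases carry the classical cyclin-binding motif of yeast Cdc2 and are present throughout the cycle, whereas B-type kinases are specific to plants and are known to accumulate from S phase to mitosis. B-type cyclins accumulate before mitosis and are destroyed at its end. KRP proteins bind and inhibit kinase and cyclin complexes. In a grass leaf, division is confined to the base of the growing leaf, and the expanded blade is largely post-mitotic.

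Each array was measured in 1 colour, and the values below are log2 signals set against the array's own 75th percentile over non-control spots, so that 0 is the 75th percentile. Between 71.4% and 85.5% of non-control spots were well above background. With 3 arrays a group, precision is limited. The linalool synthase locus Os02g0121700 had a lower signal on the arrays labelled Line 13 (log2 difference -3.43, SE 0.90, limma adjusted p = 0.0185). This goes against the label of an overexpressing line, and it is not stated whether its probe covers the introduced sequence. The names Line 13 and wild type are therefore used below for what the arrays are labelled, and each direction is one between labels. Slide 1 and scan 1 held the wild-type arrays and slide 2 and scan 2 those of Line 13, so slide and scan cannot be told apart from the group. Over 443 loci with probes at both ends of the transcript, the median log2 signal of the 5′ probe minus that of the 3′ probe was -2.85 on Line 13 replicate 1. It lay between -1.99 and -1.74 on the other arrays, so that replicate 1 stands apart in this measure. Among leaf markers, 4 Rubisco small subunit loci were well above background on all 6 arrays, with log2 signals from 3.09 to 8.37. The light-harvesting locus Os01g0720500 was so too, at -1.85 to -1.38 in wild type and 3.40 to 6.26 in Line 13. These leaf markers do not settle the tissue label, since the root gene RCc2 lay at 4.60 to 4.88 in Line 13. The other root gene listed, RCc3, was far dimmer there, at -4.50, -1.88 and -5.96 on replicates 1, 2 and 3. On no wild-type array was either root gene well above background.

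Line 13 was set against wild type to find genes whose leaf signal differs between the line and its parent cultivar. The B-type cyclins and CDKB2;1 were near or below the detection level on the wild-type arrays and well above background on every array labelled Line 13. CDKA;1, CDKA;2 and CDKB1;1 were well above background in both groups, with differences of about 1 on the log2 scale or less. The inhibitor KRP1 did not pass the test. At a limma adjusted p under 0.05, 7 of the 8 loci were higher and 0 lower, nor was any lower at an unadjusted p under 0.05. Of all 22221 units tested, 22129 loci and 92 probes without a locus, 54.8% were called, 26.8% higher and 28% lower. The same 7 loci had sets of arrays that did not overlap, where 32.7% of all units did not overlap with Line 13 higher and 35.9% with Line 13 lower. For 3 of the 8, the B-type cyclins, no wild-type array was well above background, a state found for 7.98% of all units tested. In all, 7.56% of the units were in this state and called higher. A locus was tested where every array of wild type or every array of Line 13 was well above background, and these 3 and CDKB2;1 (2 of 3 wild-type arrays) entered only through Line 13. For these 4 a difference was thus built into the choice, and among the 4 members well above background on all 6 arrays 3 were higher. The count of 7 fell to 4 when any 1 of wild-type replicate 2, wild-type replicate 3 and Line 13 replicate 2 was left out, and with array medians as the scale. Ranked among all fitted differences, CYCB2;2 stood at percentile 99.6, CYCB1;1 at 98.9, CDKB2;1 at 98.2 and CYCB2;1 at 97.3. For the 3 cyclins these ranks rest on wild-type values not well above background, and for all 4 on the choice just described. At the bounds explained below, the log2 differences were 7.39 for CYCB2;2, 6.32 for CYCB1;1 and 4.94 for CYCB2;1. The A-type kinases, CDKB1;1 and KRP1 stood at percentiles from 58.9 to 76.3. In leaf tissue measured in bulk, fewer cells of a type and less RNA per cell cannot be told apart.

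**Figure D1:**
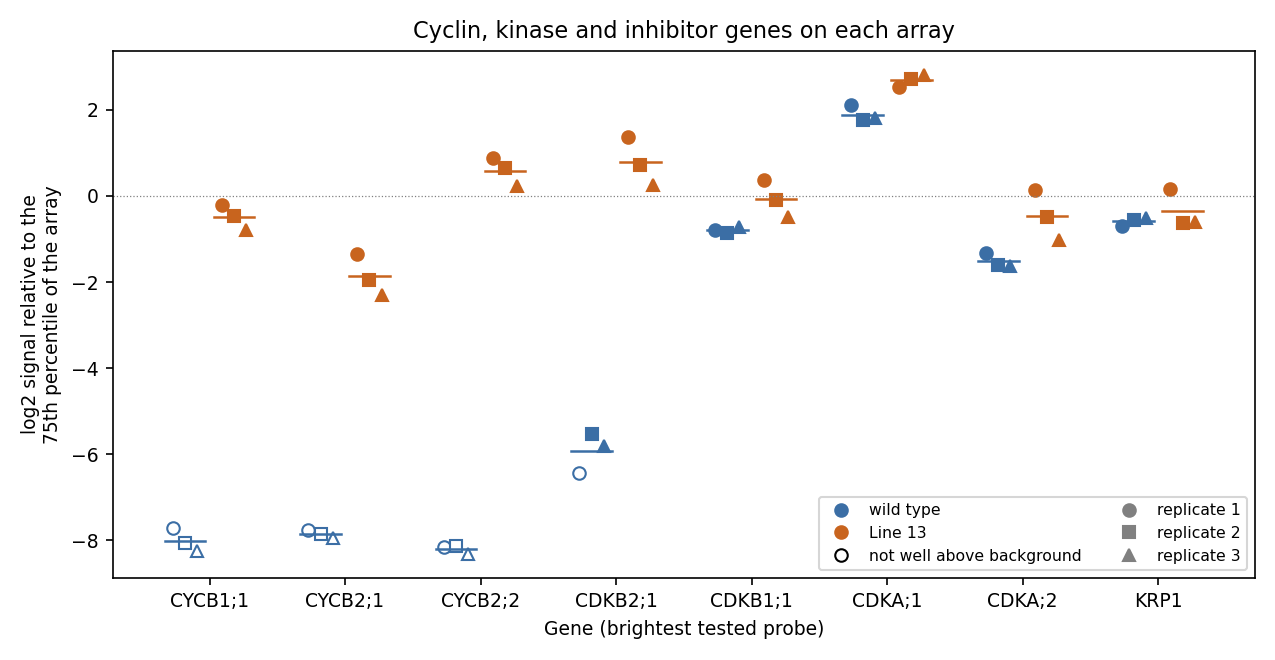
Log2 signal over the array's 75th percentile (vertical axis) of the brightest tested probe of each gene, on 3 wild-type (blue) and 3 Line 13 (orange) arrays. Marker shapes stand for replicates, bars for group means and open markers for values not well above background. The 3 cyclins lie near -8 on all wild-type arrays and between -2.31 and 0.88 on the Line 13 arrays, while the KRP1 values of the groups overlap.

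CYCB2;2, a B-type cyclin that with its kinase brings cells into mitosis, had a log2 signal of -8.15, -8.13 and -8.31 in the wild-type set (replicates 1, 2 and 3 in order, here and below). In the Line 13 set it was 0.88, 0.65 and 0.23. Every Line 13 value was thus above the 75th percentile of its array, and every wild-type value was at the bottom of the range, with none well above background. The fitted difference was 8.78 (SE 0.22, n = 3 and 3, limma adjusted p = 2.66e-06). Because the gene was well above background on no wild-type array, its fold is given as a bound, and it was at least 168-fold higher. The bound compares the Line 13 mean with a wild-type mean in which each array contributes the higher of the gene's own signal and the lowest signal of any probe well above background there. "At least" is meant in this sense throughout. It is no strict minimum, since a signal not well above background can lie above that lowest signal. With another background correction, given below, the log2 difference was 4.48, under the 7.39 at this bound. The other probe of the locus, designed on the transcript AK070518, gave at least 91.1-fold.

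CYCB1;1, the B-type cyclin most often used as a marker of dividing cells in Arabidopsis, had log2 signals of -7.70, -8.07 and -8.25 in the wild-type set. In the Line 13 set they were -0.20, -0.47 and -0.79. The sets did not overlap, no wild-type value was well above background, and the gene was at least 79.9-fold higher (fitted log2 difference 7.52, SE 0.25, limma adjusted p = 5.63e-06). CYCB2;1, the close relative of CYCB2;2, had log2 signals of -7.77, -7.84 and -7.96 in wild type, against -1.35, -1.96 and -2.31 in Line 13. Again the sets were far apart. The gene was at least 30.7-fold higher (fitted log2 difference 5.98, SE 0.28, limma adjusted p = 1.71e-05). Its 3 probes gave fitted differences from 5.75 to 5.99, and wild type had none of the 3 well above background.

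Most of these wild-type cyclin values are placeholders and not measured levels. Over 6 cyclin probes on 3 wild-type arrays, 17 of 18 values were not significantly above background. In these 17 the deposited processed signal lay within 1% of the software's own error estimate for the spot. After background subtraction alone the 18 signals ran from -3.59 to 3.85 on the linear scale, 9 of them below 0, while the Line 13 signals of the same probes ran from 105 to 2758. The spread of the wild-type values, and with it the SE of the cyclin differences, is therefore no spread of measured levels. With another background correction (normexp with an offset of 50, chosen after the files were seen) the log2 difference was 4.48 for CYCB2;2, 3.39 for CYCB1;1 and 2.28 for CYCB2;1, each with limma adjusted p of 0.000566 or less.

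CDKB2;1, the plant-specific kinase known to peak at mitosis, was the member with a low but partly measured wild-type level. Its log2 signal was -6.44, -5.52 and -5.80 in wild type, and replicates 2 and 3 of these were well above background. In Line 13 it was 1.37, 0.73 and 0.25, so that every array there lay above its 75th percentile and the sets did not overlap. The difference was 6.70 (SE 0.37, limma adjusted p = 3.38e-05), a 104-fold higher signal that rests on a wild-type mean in which replicate 1 was not well above background. The second probe, well above background on 1 wild-type array, gave 7.21 (SE 0.40). Neither probe would have been tested on its wild-type signals. With the other background correction the difference was 4.21. The exact two-sided permutation test over the 6 arrays gave p = 0.1 for this kinase and for each of the 3 cyclins, the smallest that 3 against 3 arrays allow.

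**Figure D2:**
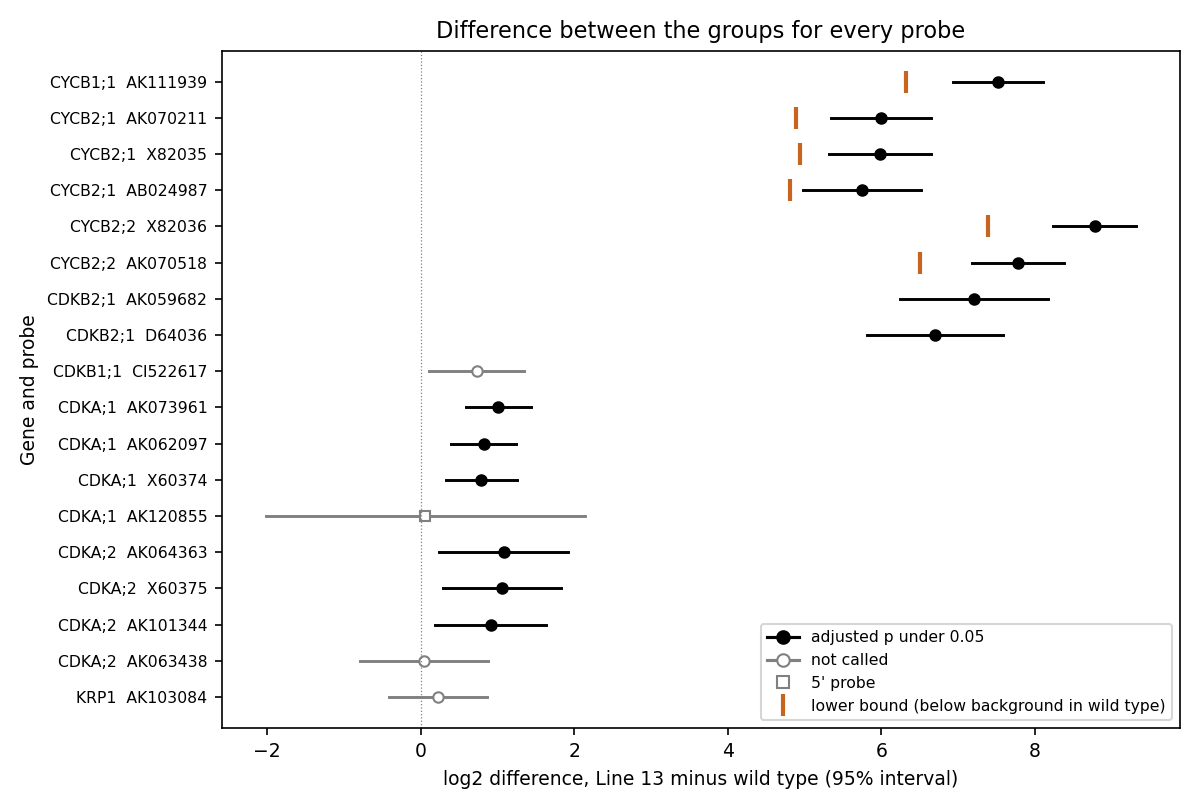
Log2 difference between the arrays labelled Line 13 and wild type (horizontal axis) for each of the 18 probes (vertical axis), with its 95% interval from a fit over all tested probes. Filled markers passed an adjusted p of 0.05, the square is the 5′ probe of CDKA;1, and orange ticks are the lower bounds for genes well above background on no wild-type array. The 8 probes of the B-type cyclins and CDKB2;1 lie between 5.75 and 8.78, and the other 10 between 0.05 and 1.08.

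CDKB1;1, the other B-type kinase, was well above background in wild type. Its log2 signal was -0.80, -0.85 and -0.73 in wild type, against 0.38, -0.09 and -0.49 in Line 13. The sets did not overlap, although Line 13 replicate 3 lay close to wild-type replicate 3. The difference was 0.73 (SE 0.26, 95% interval 0.11 to 1.35), a 1.66-fold higher signal with limma adjusted p = 0.0497, just inside the threshold. In the fit over all tested probes the same probe had adjusted p = 0.0503 and was not called. The call was lost in 9 of 16 alternative settings. The adjusted p was 0.119, 0.147 and 0.109 when wild-type replicates 1, 2 and 3 were left out in turn, and 0.111 without Line 13 replicate 2. It was 0.0530 with normexp and 0.264 with array medians as the scale, and it ran from 0.0187 to 0.264 in all, with a difference above 0 in each. Its probe was designed on an expressed sequence tag, and the part of the transcript it covers is not named.

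CDKA;1, the rice homologue of the yeast cell cycle kinase Cdc2, lay above the 75th percentile of every array. Its brightest probe had log2 signals of 2.10, 1.76 and 1.81 in wild type, against 2.52, 2.71 and 2.82 in Line 13. The sets did not overlap, and the difference was 0.79 (SE 0.19, 95% interval 0.32 to 1.26), a 1.73-fold higher signal with limma adjusted p = 0.0143. Leaving out wild-type replicate 2 gave an adjusted p of 0.0758, leaving out wild-type replicate 3 gave 0.0575, and leaving out Line 13 replicate 2 gave 0.0515. With array medians as the scale the difference was 0.48, with adjusted p = 0.0868.

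CDKA;2, the second A-type kinase, had log2 signals of -1.32, -1.61 and -1.63 in wild type. In Line 13 they were 0.14, -0.48 and -1.02, so that the sets did not overlap but the Line 13 values spread widely. The difference was 1.06 (SE 0.32, 95% interval 0.29 to 1.83), a 2.09-fold higher signal with limma adjusted p = 0.0297. Leaving out wild-type replicates 1, 2 and 3 in turn gave an adjusted p of 0.0585, 0.0952 and 0.0906, and leaving out Line 13 replicate 2 gave 0.0729. It was 0.0522 with quantile normalization and 0.114 with array medians as the scale. Without Line 13 replicate 1 the difference was 0.77, with adjusted p = 0.0287.

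The probes of the A-type kinases did not all move alike. For CDKA;1 the 3 probes in the coding sequence and 3′ UTR gave differences of 0.79, 0.82 and 1.01, each past an adjusted p of 0.05. The probe AK120855, which covers the 5′ UTR and coding sequence, had log2 signals of -2.63, -2.91 and -2.78 in wild type, against -4.83, -1.91 and -1.39 in Line 13. Line 13 replicate 1 was thus below every wild-type value and the other Line 13 arrays above them. Its difference was 0.06 (SE 0.86, adjusted p = 0.958), or 1.12 without that array. Line 13 replicate 1 is also the array with the low 5′ signals over many loci given above. The part of that in this probe was not tested.

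For CDKA;2 the probes AK101344, X60375 and AK064363 gave differences of 0.91, 1.06 and 1.08, all called. The probe AK063438, assigned to another transcript of the locus, Os02t0123100-02, had log2 signals of -3.78, -4.31 and -4.29 in wild type, against -3.48, -4.06 and -4.69 in Line 13. Its difference was 0.05 (SE 0.35, 95% interval -0.79 to 0.88, adjusted p = 0.916), and the sets overlapped. It too is a probe of the coding sequence and 3′ UTR. With the mean over all tested probes of a locus in place of the brightest one, neither A-type kinase passed, with adjusted p = 0.0834 for the first and 0.0857 for the second.

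**Figure D3:**
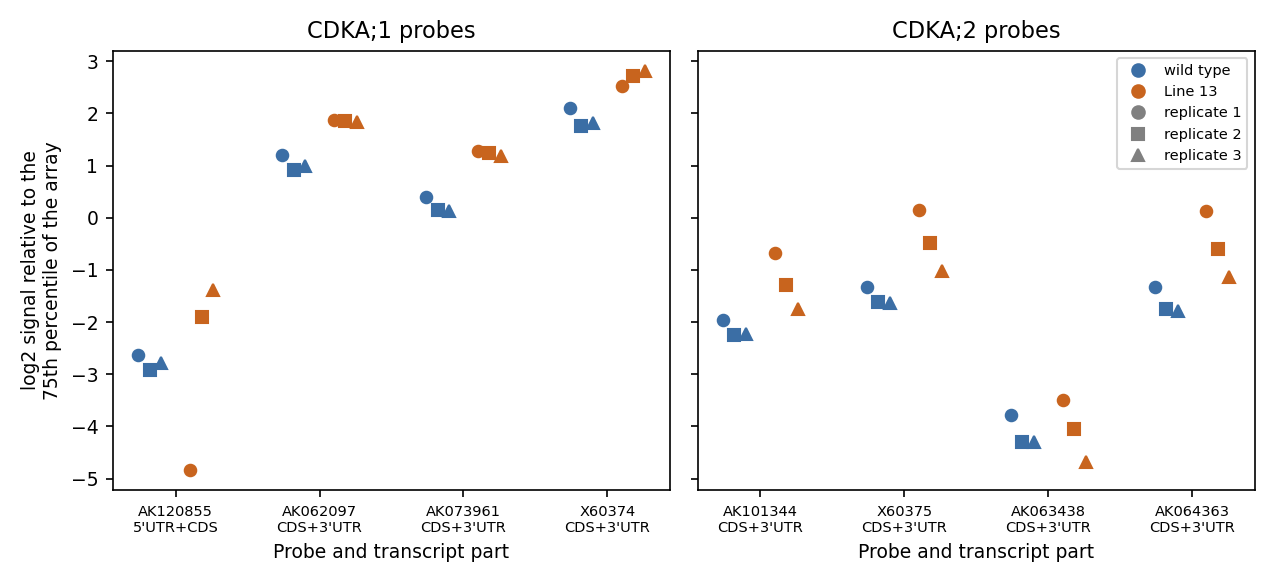
Log2 signal over the array's 75th percentile (vertical axis) for each probe of CDKA;1 (left) and CDKA;2 (right), on wild-type (blue) and Line 13 (orange) arrays, with marker shapes for replicates. The 5′ probe AK120855 reads -4.83 on Line 13 replicate 1, and the groups overlap for AK063438.

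KRP1, the inhibitor, had log2 signals of -0.70, -0.56 and -0.50 in wild type, against 0.16, -0.63 and -0.61 in Line 13. Line 13 replicate 1 was above all wild-type arrays and the other 2 lay among them. The difference was 0.23 (SE 0.26, 95% interval -0.41 to 0.86, limma adjusted p = 0.495), and the interval leaves room for changes of either sign. The exact two-sided permutation p was 0.7, against 0.1 for each of the other 7 loci. Without Line 13 replicate 1 the fitted difference was -0.03, and scaling by array medians gave -0.09.

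The A-type and B-type kinases were then compared within arrays, since a ratio of 2 genes on the same array does not depend on the scaling. The ratio of different probes is no ratio of transcript levels, so its change between the sets is what is read. The log2 ratio of CDKB2;1 to CDKA;1 was -8.54, -7.28 and -7.61 in wild type, against -1.15, -1.98 and -2.56 in Line 13. It changed by 5.91 (SE 0.56). The ratio to CDKA;2 changed by 5.64 (SE 0.37). With normexp these changes were 3.50 and 3.28. For each the exact two-sided permutation p was 0.1, the smallest possible, and 0.2 after Benjamini-Hochberg adjustment over the 4 pairs compared. The sets did not overlap in either ratio, but 3 against 3 arrays cannot bring this test below 0.05. As CDKB2;1 entered only through Line 13, a difference was built into both ratios.

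For CDKB1;1 the changes were small. Its log2 ratio to CDKA;1 was -2.91, -2.61 and -2.54 in wild type, against -2.14, -2.80 and -3.30 in Line 13, a change of -0.06 (SE 0.36, exact permutation p = 1) with overlapping sets, whose sign turned in 3 of the alternatives. Its ratio to CDKA;2 changed by -0.33 (SE 0.14, exact permutation p = 0.2, adjusted 0.267). Set directly against each other, a pair added after the values were seen, the ratio of CDKB2;1 to CDKB1;1 was -5.63, -4.67 and -5.07 in wild type. In Line 13 it was 0.99, 0.82 and 0.74, a change of 5.97 (SE 0.29, exact permutation p = 0.1), or 3.54 with normexp. This change was larger than the spread of either set. A difference was again built in, since CDKB2;1 entered only through Line 13, so the change is a description and no test of the 2 B-type kinases.

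By their brightest probes, most members ranked the Line 13 arrays alike. For 6 of the 8 loci, all but CDKA;1 and KRP1, the signal was highest on replicate 1 and lowest on replicate 3, an order that 34.9% of all units tested showed. Over replicates 1, 2 and 3 the median 5′ minus 3′ signal was -2.85, -1.99 and -1.74, and the summed leaf markers were 235, 584 and 672 times the 75th percentile, so that replicate 1 was also the lowest in both. Their part in the order was not tested. The brightest probe of CDKA;1 was in the opposite order, 0.16 below its mean on replicate 1 and 0.13 above it on replicate 3. Other probes of this locus were divided. AK062097 (1.88, 1.86 and 1.84) and AK073961 (1.29, 1.23 and 1.19) fell slightly from replicate 1 to 3, whereas AK120855 rose (-4.83, -1.91 and -1.39). The log2 ratio of CDKB2;1 to CDKA;2 ranged over only 0.07 on the 3 Line 13 arrays, the smallest of the 28 pairs of members. The 7 pairs with CDKA;1, read by its brightest probe, ranged over 0.89 to 1.46, and the other pairs over at most 0.57. As a description of 3 arrays, the between-array differences of the 3 cyclins, both B-type kinases and the second A-type kinase ran in 1 direction. The median range of the 8 loci over these arrays was 0.83, close to the 0.81 of all units tested.

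**Figure D4:**
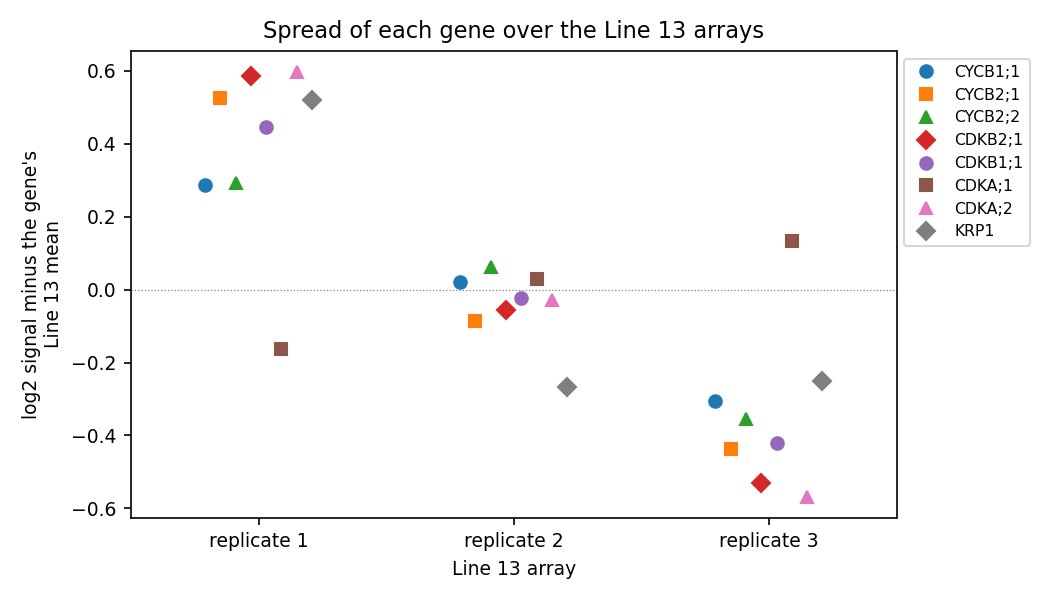
Log2 signal of each gene minus its own mean over the Line 13 arrays (vertical axis), by array. The points of 6 genes lie between 0.29 and 0.60 on replicate 1 and between -0.57 and -0.30 on replicate 3. CDKA;1, by its brightest probe, runs the other way, and KRP1 is low on both replicates 2 and 3.

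Other cyclins followed the B-type cyclins in part. Of 7 other A- and B-type cyclin loci, 6 were on the array and tested, and all 6 were higher (26.8% of all units were), with a median log2 difference of 4.31 against -0.07 over all units tested. For 4 of them no wild-type array was well above background, so that they entered only through Line 13 and a difference was built in. The 2 detected on all 6 arrays were both higher. CYCB1;5 was at least 187-fold higher. CYCA3;1 was 19.0-fold higher as fitted (log2 difference 4.25, SE 0.22). It was well above background on no wild-type array, so this fold does not rest on a detected wild-type level. Its bound is the same value, since its wild-type signals lay above the lowest signal of any probe well above background there. CYCA2;1, an A-type cyclin of S phase and early mitosis, was well above background on every array and rose by 5.52 (SE 0.40, limma adjusted p = 0.000107).

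D-type cyclins, which couple growth signals to entry into the cycle, went several ways. Of 11 loci, 10 were tested, with 6 higher, 1 lower and 3 not called, beside 26.8% higher and 28% lower over all units, and a median of 2.09. CYCD4;1 was 46.0-fold higher as fitted (log2 difference 5.52, SE 0.21). It too was well above background on no wild-type array, and its bound is the same value, for the reason given for CYCA3;1. CYCD3;1 was at least 32.8-fold higher and the D-type cyclin locus Os12g0588800 at least 86.2-fold higher. The 1 that fell, named after its value was seen, was CYCD5;3, with a 2.01-fold drop (log2 SE 0.19, limma adjusted p = 0.00577). The 6 loci of this list that every wild-type array detected well above background had 2 higher and 1 lower.

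The kinases of classes C to G, which act in transcription, splicing or the activation of other kinases, were lower or not called. Of the 7, 0 were higher by limma at an adjusted or an unadjusted p under 0.05, and 0 at an adjusted p under 0.05 in each of the 16 alternatives. In all, 4 fell, where 28% of all units did, and the median was -0.79. CDKG;2 fell by 2.20 (SE 0.24, limma adjusted p = 0.000596), CDKC;1 by 0.91 (SE 0.16, adjusted p = 0.00438) and CDKE;1 by 0.91 (SE 0.17, adjusted p = 0.00567). CDKD;1, the kinase that activates other cyclin-dependent kinases, differed by 0.02 (SE 0.23) with overlapping sets. All 7 were well above background on every array.

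Among inhibitors and regulators of entry into S phase, 8 of 9 loci were tested and 4 were higher, beside 26.8% of all units, with a median of 1.14. Of the 5 detected on all 6 arrays, 1 was higher. The inhibitor locus Os09g0459900, of the KRP family, was 113-fold higher as fitted (log2 difference 6.82, SE 0.20). This locus was well above background on no wild-type array either, and its bound is again the fitted value. KRP3 differed by 0.73 (SE 0.48, adjusted p = 0.235) and KRP4 by -0.39 (SE 0.17, adjusted p = 0.101). RBR1, a retinoblastoma-related repressor of S-phase genes, was at least 26.4-fold higher, and WEE1, a kinase that restrains cyclin-dependent kinases, at least 23.7-fold higher. RBR2 differed by -0.16 (SE 0.25) and E2F1 by 0.01 (SE 0.23), neither called. In the D-type cyclin and inhibitor lists 4 and 3 of the tested loci, all of them higher, were well above background on no wild-type array and entered only through Line 13. The medians of both lists were the same at the bounds.

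Of 9 loci of mitosis itself, 8 were tested and 6 were higher, beside 26.8% of all units, with a median of 4.51, or 4.23 with loci undetected in wild type at their bounds. Of the 4 detected on all 6 arrays, 2 were higher. AUR1, an Aurora kinase of the spindle, was at least 180-fold higher, MAD2 of the spindle checkpoint at least 85.0-fold and CDC20-3, an activator of the complex that destroys cyclins, at least 19.8-fold. MYB3R-2, a transcription factor of G2/M genes in rice, differed by 0.31 (SE 0.23, adjusted p = 0.282), and CCS52A by -0.22 (SE 0.19, adjusted p = 0.357). Of 11 loci of DNA replication, 9 were tested and all 9 were higher, beside the same 26.8%, with a median of 5.92, or 5.28 at the bounds. The helicase subunits MCM6, MCM7 and MCM3 were at least 84.5-fold, 60.2-fold and 114-fold higher. In the mitotic and replication lists 4 and 5 of the tested loci, those named with a bound among them, were well above background on no wild-type array, so that a difference was built in. The 4 replication loci detected on all 6 arrays were all higher.

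**Figure D5:**
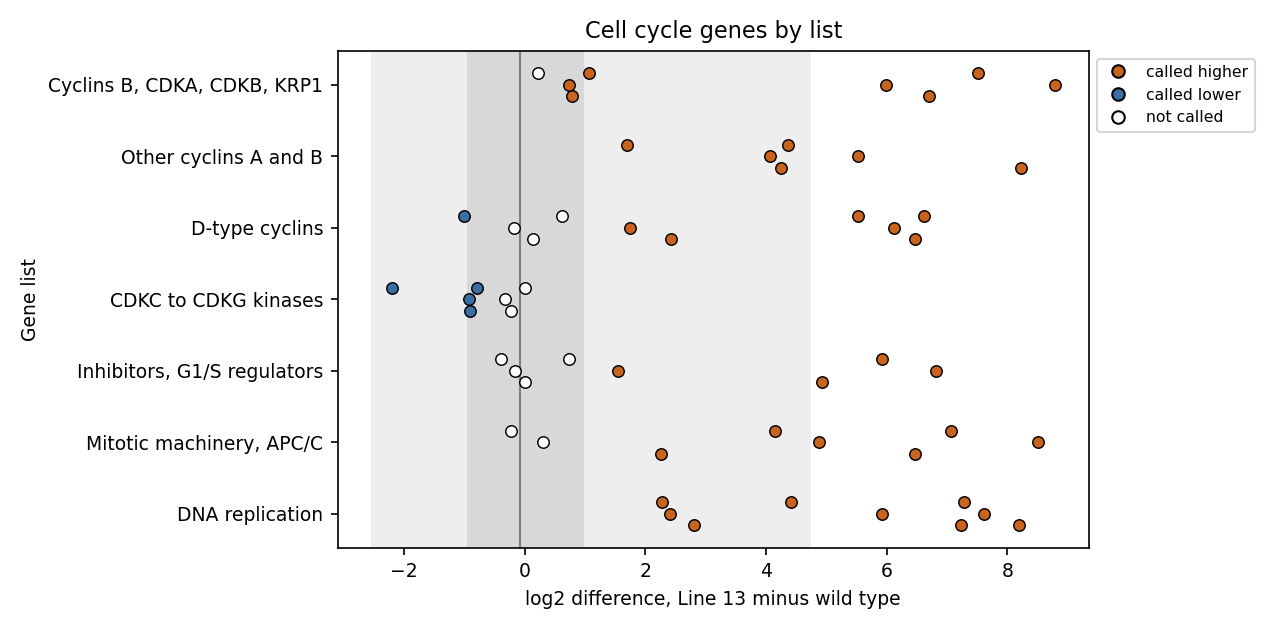
Log2 difference between the arrays labelled Line 13 and wild type (horizontal axis) of each tested locus, by gene list (vertical axis), with calls at an adjusted p under 0.05 in colour. Dark and light grey bands hold the middle of all units tested, from the 25th to the 75th percentile (-0.93 to 0.97) and from the 5th to the 95th (-2.53 to 4.73). Loci of replication all lie right of the dark band, and those of CDKC to CDKG kinases lie within it or to its left.

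Markers of growing tissue moved with these genes only in part. The growth regulators GRF1 and GIF1, which act in the dividing leaf base, were well above background on no wild-type array and on all Line 13 arrays. Their summed signal was 0.00937 to 0.0200 of the 75th percentile on the wild-type arrays and 0.909 to 1.94 times it on the Line 13 arrays. Of 4 class I KNOX genes of the shoot meristem, all arrays of wild type detected 1 and all arrays of Line 13 detected 3 well above background, with a summed signal of 0.0379 to 0.0963 and of 0.0768 to 1.13. On Line 13 replicate 3 it was 0.0768, within the wild-type range, while every B-type cyclin was still well above background there. Wild type had neither root gene well above background, and the sum of the 2, nearly all of it from RCc2, was 24.5 to 29.5 in Line 13. Floral MADS-box genes, 10 in all, had 4 that were well above background throughout wild type and 4 throughout Line 13, with sums of 0.565 to 0.678 and of 0.198 to 0.336. The leaf list summed to 599 to 741 in wild type and to 235 to 672 in Line 13, with the lowest value on replicate 1. The part of these tissues in the differences was not tested.

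Genes most like 2 of the kinases were sought among 17909 loci outside the lists that were well above background on all 6 arrays, by the root mean square difference of mean-centred log2 profiles. For CDKB2;1 the nearest was Os02g0264800, at 0.15, and for CDKA;1 it was Os03g0178200, at 0.05. The difference between the groups was 6.58 for the first and 0.77 for the second. Names for these loci were not used here.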

How the data were processed

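The deposited processed intensity is linear and, per the file headers, was background-subtracted and spatially detrended by Agilent's Feature Extraction (version 10.10.1.1). The deposited value table is also an intensity, in which each array's processed signals are multiplied by a constant, between 1.61 and 7.66. Its scaling is not stated, no centring was found, and its column medians ran from 395.65 to 561.45. Per the labels' protocols, 100 ng of RNA was labelled with Cy3 and hybridised for 17 h at 65 °C.

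Control spots, 59 named control probes and outlier-flagged spots were left out, repeated spots were averaged, and log2 signals were scaled to the 75th percentile of each array. Tests covered probes well above background (in at least 50% of their spots) on every array of wild type or of Line 13, and the brightest such probe stood for its locus. Line 13 minus wild type was estimated by lmFit and eBayes of limma 3.58.1 (R 4.3.3) without a block, adjusted by Benjamini-Hochberg over all units tested, and the steps were tested on simulated data. Python 3.11.15 with pandas 2.3.3, numpy 2.4.6 and matplotlib 3.10.9 made the summaries and figures. Replicates are separate pools of plants, per the labels. A normexp background correction had been planned on mean signals, which the files do not hold. The form used, on median signals, was chosen after the files were seen.

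The members, the gene lists and the alternatives were chosen with earlier results of these data known. Named genes were all 8 members, up to 3 tested loci of each other list with the smallest unadjusted p, and the nearest loci to 2 kinases, of which 1 each is printed. Other loci named within a list were chosen after their values were seen. Locus names are general knowledge. RefSeq synonyms (assembly ASM3414082v1) placed the name on the same chromosome for 41 of 62 list loci, all 8 members included, had no synonym for 16, and placed 5 elsewhere, which are given by locus only. No probe or gene sequences were used here.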

Additional observations from a re-analysis of the deposited data

How the results depend on the processing

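The counts over all units and lists, the 8 member differences and the kinase ratios were recomputed under 16 alternatives, 6 of which left out 1 array. Single loci of the other lists, medians, bounds, marker sums, array order and nearest loci were not. The calls of CYCB1;1, CYCB2;1, CYCB2;2 and CDKB2;1 and the changes of CDKB2;1 relative to the other kinases kept their direction under each alternative that gave a value. A ratio within an array cannot change with array medians as the scale or with a replicate block, so these alternatives do not check the ratios. When testing was limited to probes detected well above background on each of the 6 arrays, the B-type cyclins and CDKB2;1 were not tested, 3 of 4 members were higher, and 3792 of all units were. The counts of higher loci were then 2 for other cyclins, 2 for D-type cyclins, 1 for inhibitors and regulators, 2 for mitotic genes and 4 for replication, because fewer loci were tested. Scaling to array medians moved the median of all units by -0.31 and gave 4 members higher, 1 inhibitor or regulator lower and 1 mitotic gene lower, with KRP1 at -0.0859. Of the calls over all units 36.0% were then higher and 64.0% lower, against 48.9% and 51.1%. Relative to the median unit, KRP1 was at 0.30 under both scalings and CDKA;1 at 0.86. These values had to be equal, since both scalings subtract a constant from each array. With quantile normalization KRP1 was at 0.43 and CDKA;1 at 1.17 relative to the median unit. With the mean over probes, the change of CDKB1;1 relative to CDKA;1 was 0.0589. When 1 array was left out, the members higher ran from 4 to 7, the units lower from 4067 to 7510, the change of CDKB1;1 relative to CDKA;1 from -0.37 to 0.22, and KRP1 from -0.0333 (without Line 13 replicate 1) to 0.36. The lowest count of members came from leaving out either of wild-type replicates 2 and 3, or Line 13 replicate 2, and the 4067 from leaving out wild-type replicate 2. The causes of these moves were not tested. The labels share replicate numbers but state no pairing. Deviations of same-numbered samples correlated at 0.11, -0.03 and -0.0048, and those of other pairs at -0.17 to 0.21. With 3 arrays a group these values cannot settle whether samples were paired. With the number as a replicate block, 6 members were higher (CDKB1;1 was lost, adjusted p = 0.0829), with 5510 units higher and 5391 lower. A slide block could not be run, since each group lies on 1 slide. Signal over background limits the B-type cyclins in wild type, where only bounds can be given.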
